A study of Mus musculus with 6 samples.

Results

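Of 46 listed genes of DNA replication and S phase, 45 could be followed on arrays of megakaryocytes sorted from leukaemic and healthy mouse marrow, among 30063 named genes in all. The genes were chosen by name, with earlier results of these data known. They are those that license replication origins, unwind DNA, copy it, supply its nucleotides and package the new strands. Each was read from a row of the deposited table that carries its symbol alone. The row of Mcm7 also names the microRNA genes Mir25 and Mir93, so Mcm7 was not analysed here.

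The arrays fall into a pair of groups: 3 arrays of megakaryocytes from female C57 mice with acute myeloid leukaemia (AML) carrying MLL-AF9, the fusion oncogene of human mixed-lineage leukaemia, and 3 arrays of megakaryocytes from healthy female C57 mice. Both groups came from bone marrow and passed the same gate for high CD41, a platelet integrin chain and the product of Itga2b, for high side scatter and for at least 8N of DNA. The labels number the arrays 1 to 3 in each group as biological replicates without saying whether animals were pooled, and the age of the mice and the way the leukaemia was started are not given in the sources used here. Values are log2 levels, given below in the order of arrays 1, 2 and 3, differences are AML minus control, ± is the SD over the n = 3 arrays of a group, and a gene was called when limma's p-value, adjusted over all 30063 genes, was under 0.05.

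Before a cell divides, the origin recognition complex, CDC6 and CDT1 load the ring-shaped MCM helicase onto replication origins, a step called licensing that geminin blocks by binding CDT1. In S phase the DBF4-dependent kinase and cyclin-dependent kinases turn the loaded ring into the active helicase of MCM, CDC45 and GINS, behind which the polymerases work. Many of these genes are induced by E2F factors at the passage into S phase. Megakaryocytes become polyploid by endomitosis, in which rounds of DNA replication follow each other without cell division, so that they run this machinery repeatedly while they mature.

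All 13 measured megakaryocyte markers had a mean above 5.51, the level below which 95% of 1528 olfactory and vomeronasal receptor genes lay, a family taken here as a guide to background, and 0 of the 13 were called. Their difference was above 0 in 10 of the 13 and below 0 in 3, with a median of +0.18. The share above 0 was 76.9%, against 68.8% of all genes and 51.7% of those above 5.51. The brightest of the 13, the platelet chemokine genes Ppbp and Pf4, were among the 3 below 0, at -0.14 and -0.11. Among other cell types, 9 of 10 neutrophil, 9 of 11 monocyte and macrophage, 3 of 7 erythroid and 5 of 9 B lineage markers were lower in AML, as Ngp (-1.11), Retnlg (-1.06), C1qb (-1.15), Slc4a1 (-0.57), Ighm (-3.02) and Cd79b (-0.39) were, while Cd68 (-0.79) and Epor (+0.19) were not called. Over all genes, 6.25% were called lower and 4.49% higher in AML. Of 10 markers of granulocyte-monocyte progenitors, 3 were higher and 1 lower. Elane and Mpo, granule protein genes of these cells, differed by +0.33 and +0.05 without a call. Of 7 T and NK markers, 1 had a mean above 5.51 and 6 had a difference above 0. The 1 called was Ncr1, at +0.34, whose mean of 4.54 was not above 5.51. Nkg7 and Cd3d, at +0.10 and -0.38, were not called. Across the 30063 genes, AML minus control had a median of +0.11, and across the 13248 with a mean above 5.51 it was +0.01. This shift thus varied with the level of the genes, and the differences below were not adjusted for it.

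None of the 45 replication genes was called between AML and control. This was 0 higher and 0 lower by limma, where 10.7% of all genes were called, 4.49% higher and 6.25% lower in AML. Of the genes with a mean above 5.51, as 41 of the 45 had, 17% were called. At an unadjusted p under 0.05 there were 8 of the 45, or 17.8%, against 32.8% of all genes and 39.8% of those above 5.51. The smallest adjusted p was 0.0541. The differences ran from -0.36 to 0.42, with a median of +0.19, against +0.11 over all genes and +0.01 over those above 5.51. In bulk RNA of a sort, fewer cells of a kind and less RNA per cell cannot be told apart. The 95% confidence intervals reached no higher than 0.83 and no lower than -0.70, or 1.78-fold higher and 1.62-fold lower in AML, and the number of arrays limits this precision. The arrays are numbered as biological replicates with no animal identifiers, so p-values measure only the spread between these samples, which may be technical.

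**Figure D1:**
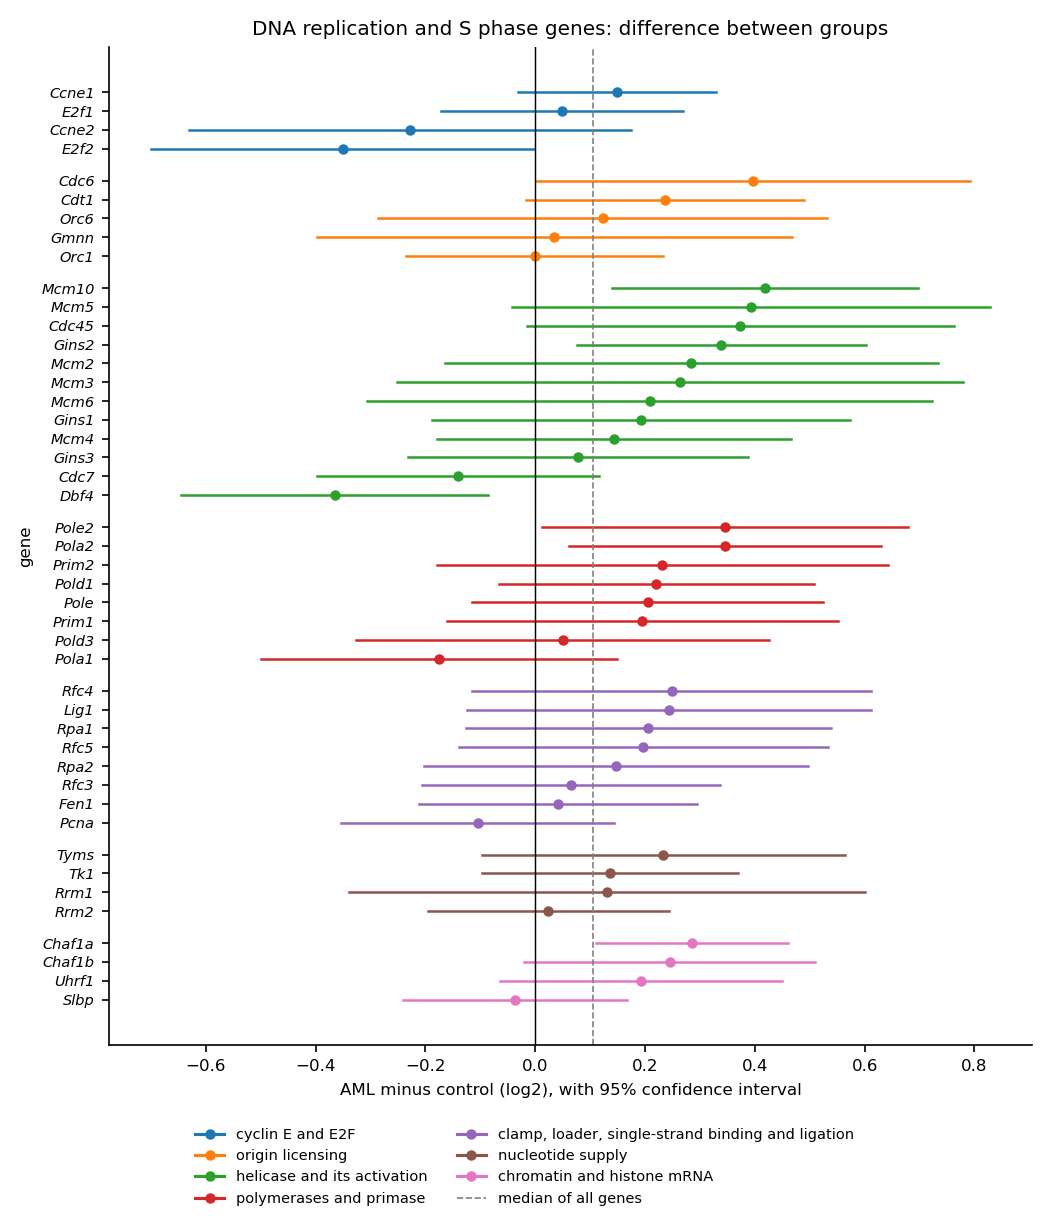
Difference between AML and control for each of 45 replication genes, on the log2 scale, grouped by role. Points are AML minus control over 3 arrays each, bars are 95% confidence intervals, the solid line is 0 and the dashed line is the median of all genes (0.11). Points lie between -0.36 and 0.42, and no gene had an adjusted p under 0.05. For genes with a mean above 5.51, as 41 of the 45 had, the median was +0.01, which is not drawn as a line.

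In 37 of the 45 the difference was above 0 (82.2%, against 68.8% of all genes), and in 30 it was above the median of all genes (66.7%, against 50%). Of the 13248 genes with a mean above 5.51, as 41 of the 45 had, 51.7% were above 0 and 36.4% above that median, and their median difference was +0.01. In 10 of the 45 the sign turned in at least 1 alternative, namely E2f1, Fen1, Gins3, Gmnn, Orc1, Pold3, Rfc3, Rrm1, Rrm2 and Slbp. All 3 AML arrays stood above all 3 control arrays in 4 of the 45, against 28.2% of all genes, and below them in 1 of the 45, against 13.1% of all genes. The 4 were Chaf1a, Mcm10, Gins2 and Pola2, and the 1 was Dbf4. In 40 of the 45 the groups overlapped. By role, the median difference was +0.24 for the helicase and its activators, +0.22 for chromatin and histone mRNA genes and +0.21 for polymerases and primase. It was +0.17 for the clamp, clamp loader and ligation genes, +0.13 for nucleotide supply, +0.12 for licensing and -0.09 for cyclin E and E2F. These medians of 4 to 12 genes lie within 0.20 of the median of all genes and are given as a description. The median of the genes above 5.51, +0.01, lies further from each of them except that of cyclin E and E2F.

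The MCM helicase and the proteins that start it made up the largest role group, with 12 genes measured. Mcm10, which helps the loaded helicase to fire, read 6.41, 6.37 and 6.05 in AML, against 5.73, 5.95 and 5.89 in control. The lowest AML array lay above the highest control array, and the mean was 1.34-fold higher in AML (difference +0.42, SE 0.12, 95% CI 0.14 to 0.70, adjusted p = 0.0651). Gins2, a subunit of the GINS complex that joins MCM to CDC45, read 6.85, 6.90 and 6.63 in AML, against 6.30, 6.47 and 6.60 in control. Its groups touched without overlapping, since AML array 3 and control array 3 lay 0.03 apart, and the difference was +0.34 (SE 0.11, adjusted p = 0.0928).

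Cdc45, another component of the active helicase, read 7.62, 7.69 and 7.12 in AML, against 6.92, 7.17 and 7.22 in control. AML arrays 1 and 2 were above every control array, and AML array 3 lay among the control arrays (difference +0.37, adjusted p = 0.164). In the ring subunits Mcm6 and Mcm5 AML arrays 1 and 2 were likewise above every control array. Mcm6 read 8.28, 8.18 and 7.63 in AML, against 7.46, 7.90 and 8.10 in control, a difference of +0.21 (95% CI -0.31 to 0.72, adjusted p = 0.507). Mcm5 read 7.88, 7.89 and 7.39 in AML, against 7.02, 7.43 and 7.54 in control, and again AML array 3 was within the control range (difference +0.39, adjusted p = 0.182). Mcm2, Mcm3 and Mcm4 differed by +0.28, +0.26 and +0.14, with adjusted p between 0.312 and 0.465, and Gins1 and Gins3 by +0.19 and +0.08. Gins3 and Cdc7 had means below 5.51, as did Orc1 and Fen1, so that the levels of these 4 genes were not shown to be above background.

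Both subunits of the kinase that activates the loaded helicase stood on the other side of 0. Dbf4, the regulatory subunit, read 5.84, 5.69 and 5.71 in AML, against 5.90, 6.09 and 6.33 in control. Every AML array was below every control array, and the difference was -0.36 (SE 0.12, 95% CI -0.64 to -0.09, adjusted p = 0.0904). Cdc7, the catalytic subunit, differed by -0.14 (adjusted p = 0.374). Neither was called.

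Promoters of the ring genes Mcm3, Mcm5 and Mcm6 are shown because each holds more than 1 match to an E2F word, beside that of Dbf4, which lay on the other side of 0. The window of the ring gene Mcm2 holds no match, and no window was on hand for Mcm4. The windows are RefSeq sequences of GRCm38.p6, from 250 bases before to 50 bases after the annotated gene start, read 5′ to 3′ on the gene's strand. Capitals mark matches to any of 4 words of the E2F consensus, TTTCCCGC, TTTCGCGC, TTTGCCGC and TTTGGCGC, on either strand. Mcm3 lies at chr1:20820263-20820562, minus strand, Mcm5 at chr8:75109259-75109558, plus strand, Mcm6 at chr1:128359656-128359955, minus strand, and Dbf4, which holds none of the words either, at chr5:8422667-8422966, minus strand.
Mcm3: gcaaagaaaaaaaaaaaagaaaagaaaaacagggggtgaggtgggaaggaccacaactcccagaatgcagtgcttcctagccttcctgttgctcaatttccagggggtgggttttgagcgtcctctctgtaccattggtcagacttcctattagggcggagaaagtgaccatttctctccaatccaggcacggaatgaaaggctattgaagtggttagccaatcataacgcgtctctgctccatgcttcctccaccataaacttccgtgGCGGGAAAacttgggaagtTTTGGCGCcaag
Mcm5: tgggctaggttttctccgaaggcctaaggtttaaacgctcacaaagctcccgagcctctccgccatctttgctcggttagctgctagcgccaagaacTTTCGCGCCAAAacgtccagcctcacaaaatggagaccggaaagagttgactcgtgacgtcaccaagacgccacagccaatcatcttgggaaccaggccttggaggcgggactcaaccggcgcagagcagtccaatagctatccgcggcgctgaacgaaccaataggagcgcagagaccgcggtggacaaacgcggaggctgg
Mcm6: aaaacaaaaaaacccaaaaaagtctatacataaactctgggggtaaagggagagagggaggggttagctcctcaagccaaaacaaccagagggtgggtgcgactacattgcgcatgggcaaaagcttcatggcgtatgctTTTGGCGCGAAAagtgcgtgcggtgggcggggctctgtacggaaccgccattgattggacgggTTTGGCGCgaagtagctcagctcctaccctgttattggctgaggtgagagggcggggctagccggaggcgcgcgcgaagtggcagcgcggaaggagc
Dbf4: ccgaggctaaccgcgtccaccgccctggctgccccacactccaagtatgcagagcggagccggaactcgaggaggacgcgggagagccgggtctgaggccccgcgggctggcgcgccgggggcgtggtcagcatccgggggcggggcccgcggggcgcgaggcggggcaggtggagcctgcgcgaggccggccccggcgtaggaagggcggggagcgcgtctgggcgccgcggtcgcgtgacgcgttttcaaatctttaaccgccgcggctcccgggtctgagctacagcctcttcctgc
In Mcm6 the matches began at positions -110, -106 and -47 from the gene start, in Mcm5 at -153 and -149, and in Mcm3 at 19 and 38. The first pair of Mcm6 and the pair of Mcm5 overlap, on opposite strands, so that each pair is 1 stretch of sequence.

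Promoter windows were on hand for 38 of the 45 genes. At least 1 of the E2F words was found in 15 of the 38, or 39.5%, against 3.17% of 18008 measured genes with a window and 4.55% of 22 mitosis genes. The 15 were Cdc6, Cdt1, E2f2, Gins3, Lig1, Mcm3, Mcm5, Mcm6, Orc1, Pola1, Pold1, Pold3, Pole2, Rfc3 and Uhrf1. The CCAAT box, searched as CCAAT on both strands, was in 55.3% of the 38 and 41.6% of measured genes. The word TTTGAA, found at the cell cycle element of late genes, was in 18.4% of the 38, 18.3% of measured genes and 72.7% of the mitosis genes. The 15 genes with an E2F word had a median difference of +0.21 between the groups (range -0.35 to 0.40, 12 above 0). The 23 without had +0.15 (range -0.36 to 0.42, 19 above 0). A match describes these letters only, not a site in use.

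Among the 5 licensing factors, Cdc6, the loader of the ring, read 6.95, 6.80 and 6.28 in AML, against 6.23, 6.33 and 6.27 in control. AML arrays 1 and 2 stood 0.46 or more above the control arrays, whereas AML array 3 lay inside their narrow range, and the difference was +0.40 (SE 0.17, 95% CI 0.0016 to 0.79, adjusted p = 0.151). Cdt1, its partner in loading, differed by +0.24 (adjusted p = 0.172). Gmnn, the gene of the licensing inhibitor geminin, read 7.58, 7.69 and 6.96 in AML, against 7.34, 7.35 and 7.43 in control. AML array 3 was the lowest of the 6 arrays and the other AML arrays were the highest, which left the group means +0.03 apart (95% CI -0.40 to 0.47, adjusted p = 0.901). Orc6 and Orc1, subunits of the origin recognition complex, differed by +0.12 and -0.0007.

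Of the 8 polymerase and primase genes, Pola2, the accessory subunit of polymerase alpha, which with primase starts every new strand, read 7.21, 7.21 and 6.95 in AML, against 6.57, 6.91 and 6.85 in control. All AML arrays were above all control arrays, the lowest AML array by 0.04, and the difference was +0.35 (SE 0.12, 95% CI 0.06 to 0.63, adjusted p = 0.105). Pola1, the catalytic subunit of the same enzyme, stood at 5.68 ± 0.09 in AML, against 5.85 ± 0.27 in control, a difference of -0.17 (adjusted p = 0.382). Pole2 and Pole, of the leading strand polymerase epsilon, differed by +0.35 and +0.20 (adjusted p 0.143 and 0.306). Pold1 and Pold3, of the lagging strand polymerase delta, differed by +0.22 and +0.05 (adjusted p 0.236 and 0.833), and Pold3 read 7.50, 7.40 and 6.95 in AML, against 7.05, 7.30 and 7.35 in control. Prim1 and Prim2, the primase subunits, differed by +0.19 and +0.23 (adjusted p 0.375 and 0.361).

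Pcna, the sliding clamp that holds polymerases on DNA, read 10.01, 10.00 and 9.73 in AML, against 9.95, 9.96 and 10.14 in control. Here the AML mean was below the control mean by less than the spread of the AML arrays (difference -0.10, 95% CI -0.35 to 0.14, adjusted p = 0.489). Rfc4, of the complex that loads the clamp, read 7.52, 7.64 and 7.12 in AML, against 7.06, 7.09 and 7.38 in control (difference +0.25, adjusted p = 0.28). The other loader genes Rfc3 and Rfc5, the single-strand binding genes Rpa1 and Rpa2, the flap nuclease gene Fen1 and the ligase gene Lig1 differed by between 0.04 and 0.24, with adjusted p from 0.294 to 0.792.

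Of the 4 genes that supply DNA precursors, Tyms, thymidylate synthase, read 8.06, 7.99 and 7.59 in AML, against 7.51, 7.65 and 7.77 in control, with AML array 3 inside the control range (difference +0.23, adjusted p = 0.268). Tk1, the thymidine kinase of the salvage pathway, differed by +0.14 (adjusted p = 0.348). Rrm1 and Rrm2, the subunits of ribonucleotide reductase, differed by +0.13 (95% CI -0.34 to 0.60) and +0.02 (95% CI -0.20 to 0.24), so that the interval is wider for Rrm1.

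Chaf1a, the large subunit of the chromatin assembly factor that places histones on new DNA, came nearest to the threshold of the 45. It read 6.81, 6.81 and 6.70 in AML, against 6.43, 6.47 and 6.56 in control, with no overlap, and was 1.22-fold higher in AML (difference +0.29, SE 0.07, 95% CI 0.11 to 0.46, adjusted p = 0.0541). Its partner Chaf1b differed by +0.24 (adjusted p = 0.175). Uhrf1, which brings the maintenance DNA methyltransferase to new strands, read 7.25, 7.23 and 7.03 in AML, against 6.82, 6.95 and 7.15 in control (difference +0.19, adjusted p = 0.246). Slbp, whose protein binds the stem-loop of histone mRNA, differed by -0.04 (adjusted p = 0.774).

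Of the 4 regulators that open S phase, 2 stood above 0 and 2 below. E2f2, an activating E2F gene, read 6.10, 6.48 and 6.48 in AML, against 6.47, 6.76 and 6.89 in control, so that 2 of the AML arrays were close to the lowest control array and AML array 1 was lower (difference -0.35, SE 0.15, 95% CI -0.70 to -0.0017, adjusted p = 0.151). E2f1 read 7.07, 6.92 and 6.81 in AML, against 6.78, 6.91 and 6.95 in control, a difference of +0.05 (adjusted p = 0.718). The cyclin E genes Ccne1 and Ccne2, whose proteins drive CDK2 and are required for endoreplication in mouse megakaryocytes, differed by +0.15 and -0.23 (adjusted p 0.209 and 0.358).

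The arrays of a group differed among themselves in a way that most of the genes shared. AML array 3 was the lowest AML array in 42 of the 45 genes and control array 1 the lowest control array in 40. Both held in 38 of the 45, or 84.4%, against 18.9% of all genes and 34.9% of the 13248 genes with a mean above 5.51. In 44 of the 45 the level on AML array 3 was under the AML mean, and in 44 the level on control array 1 was under the control mean, against 49.9% and 45.05% of all genes and 67.7% and 64.8% of the genes above 5.51. The median gene of the 45 lay 0.34 lower on AML array 3 than on the other AML arrays and 0.23 lower on control array 1 than on the other control arrays. Accordingly the median SD of the 45 was 0.22 in AML and 0.16 in control, against 0.12 and 0.10 over all genes. The first principal component of the 45 genes held 75.3% of their variance and set AML arrays 1 and 2 (-1.58 and -1.38) apart from AML array 3 and control array 1 (0.975 and 1.73), with control arrays 2 and 3 between (0.384 and -0.131).

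**Figure D2:**
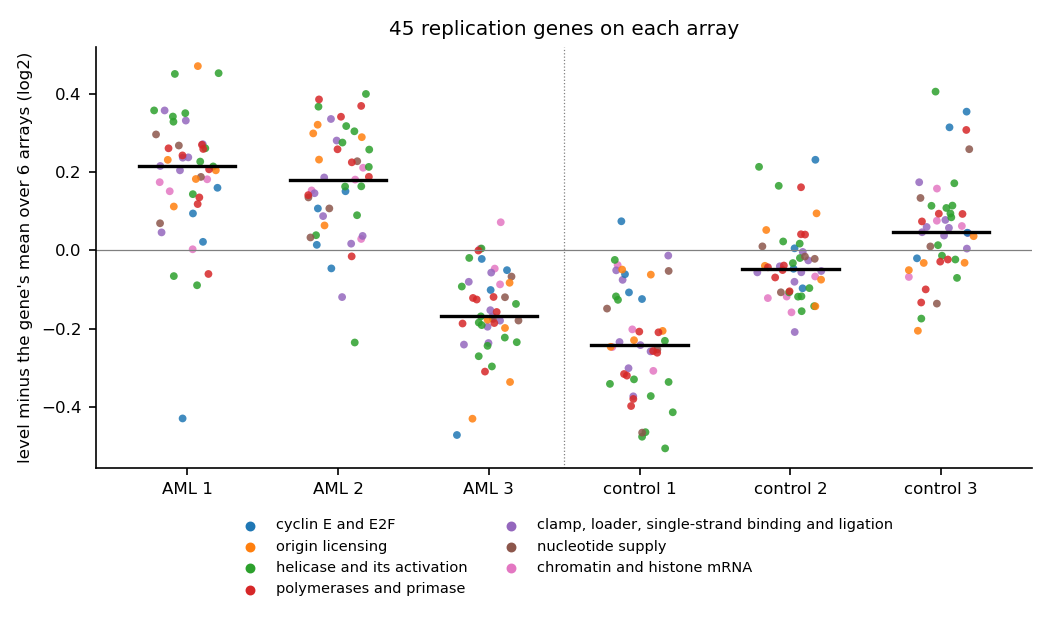
Level of each of 45 replication genes on each array, minus the gene's own mean over the 6 arrays, on the log2 scale. Each point is a gene, coloured by role, and the black bars are medians. AML array 3 was the lowest AML array in 42 of the 45 genes, and control array 1 the lowest control array in 40.

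Markers of some other cells moved with this pattern, and those of the megakaryocyte lineage ran opposite to it. The median megakaryocyte marker stood at 9.65, 9.18 and 10.10 in AML and at 9.57, 9.02 and 9.08 in control, so that AML array 3 and control array 1 were the highest of their groups. On AML array 3, 0 of the 13 markers were under the AML mean, and on control array 1, 1 of 13 was under the control mean. The median granulocyte-monocyte progenitor marker stood at 8.72, 8.70 and 8.48 in AML and at 7.94, 8.34 and 8.45 in control, lowest on the same arrays as the replication genes, with 9 of 10 and 10 of 10 markers under their group's mean there. The median monocyte and macrophage marker, at 7.81, 7.42 and 7.22 in AML and at 8.73, 8.88 and 8.87 in control, was lowest on these arrays too, with 9 of 11 and 10 of 11 markers under the mean. Of the neutrophil markers 6 of 10 were under the mean on AML array 3 and 9 of 10 on control array 1. Their median, at 8.54, 8.89 and 8.75 in AML and at 10.64, 10.83 and 10.92 in control, was lowest on AML array 1. Erythroid markers were under the mean in 5 of 7 on AML array 3 and 3 of 7 on control array 1. For B lineage markers this was 7 of 9 and 4 of 9, and for T and NK markers 3 of 7 and 3 of 7. The median of 45 replication genes itself was 6.77, 6.80 and 6.50 in AML, against 6.41, 6.47 and 6.60 in control. The part of the sorts' cell content in the levels of the replication genes was not tested. AML array 3 also had the lowest weight, 0.286, when limma estimated array weights over all genes, against 0.708 to 2.70 on the other arrays.

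**Figure D3:**
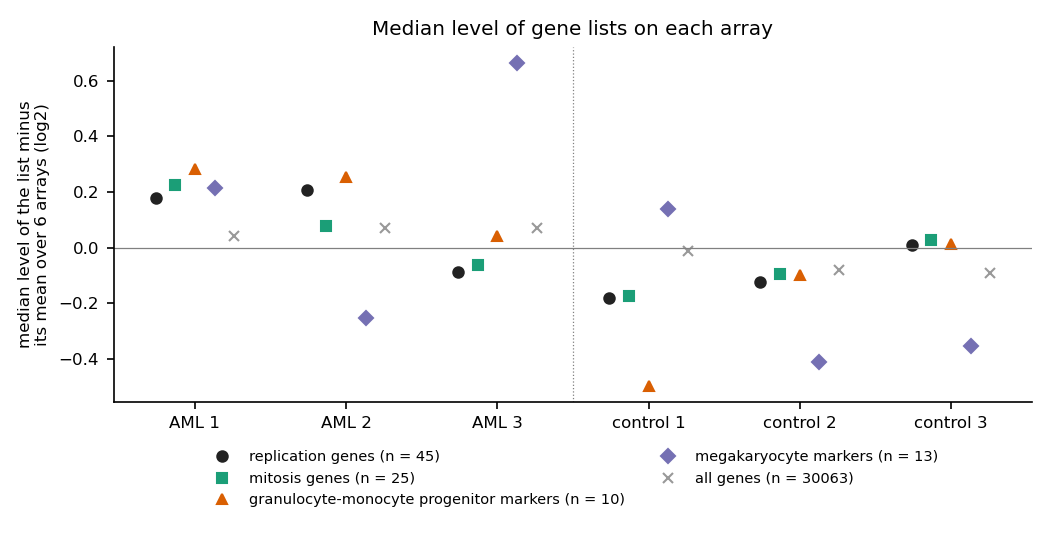
Median level of 5 gene sets on each array, minus the set's mean over the 6 arrays, on the log2 scale. Replication and mitosis genes and granulocyte-monocyte progenitor markers are lowest on AML array 3 and on control array 1 within each group, where the megakaryocyte markers are highest.

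AML array 3 was under the AML mean in 44 of the 45 genes, so that leaving it out raised the AML mean in each of these. Without AML array 3, 7 of the 45 genes were called and all were higher in AML, or 15.6%, against 12% of all genes in that comparison. They were Cdc6 (+0.59, adjusted p = 0.00887), Mcm10 (+0.53, adjusted p = 0.0172), Cdc45 (+0.55, adjusted p = 0.0274), Pole2 (+0.49, adjusted p = 0.0275), Chaf1a (+0.32, adjusted p = 0.0433), Gins2 (+0.42, adjusted p = 0.0498) and Cdt1 (+0.34, adjusted p = 0.05, rounded from just under the threshold). Leaving out any other single array gave 0 calls among the 45 by limma, where 3.22% to 9.75% of all genes were called. With array weights, which counted AML array 3 least (0.286), 11 were higher and 2 lower, the lower genes being Dbf4 and E2f2. This was 28.9%, against 26.1% of all genes. These shares were not set against those of the genes with a mean above 5.51.

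The other genes of the pathway were listed by role, also with earlier results of these data known. Of 91 listed, 85 were measured, 9 were higher and 5 lower in AML, or 16.5%, against 10.7% of all genes and 17% of the genes with a mean above 5.51, as 74 of the 85 had. In the S phase checkpoint 0 of 10 were called by limma, and Rad9a, a clamp gene of the checkpoint, differed by +0.30. At an unadjusted p under 0.05 there were 5 of these 10, against 32.8% of all genes and 39.8% of those above 5.51. Among 32 other subunits and fork factors 1 was higher and 1 lower, or 6.25%. Pold2, the second subunit of polymerase delta, read 8.21, 8.16 and 7.87 in AML, against 7.54, 7.63 and 7.74 in control (difference +0.44, adjusted p = 0.0488), and Donson, a fork protein gene, read 5.70, 5.93 and 5.96 in AML, against 6.50, 6.40 and 6.51 in control (difference -0.61, adjusted p = 0.0101). Asf1b, a histone chaperone gene, differed by +0.16 without a call.

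Of the nucleotide enzymes outside the 45, 4 of 13 were higher and 1 lower. This was 38.5%, against 10.7% of all genes and 17% of those with a mean above 5.51. Samhd1, whose product breaks down deoxynucleotides and is abundant in resting myeloid cells, read 7.75, 7.78 and 7.53 in AML, against 8.997, 9.18 and 9.24 in control. The groups were far apart, and the level was 2.74-fold lower in AML (difference -1.45, SE 0.10, adjusted p = 0.000684). The median monocyte and macrophage marker was lower in the same arrays, at 7.22 to 7.81 in AML and 8.73 to 8.88 in control, and its part in the level of Samhd1 was not tested. Dtymk, thymidylate kinase, which acts after TYMS and TK1, read 8.66, 8.65 and 8.14 in AML, against 7.63, 7.85 and 7.90 in control (difference +0.69, adjusted p = 0.0386). Shmt1, of the folate cycle that feeds TYMS, Ctps, a CTP synthase, and Dctpp1, which clears faulty deoxycytidine nucleotides, were higher, with differences of +0.51, +0.40 and +0.50 (adjusted p 0.0127, 0.0294 and 0.0312).

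Of 30 genes of G1/S control, 4 were higher and 3 lower. This was 23.3%, against 10.7% of all genes and 17% of those with a mean above 5.51. Cdkn1b, the gene of the CDK inhibitor p27, read 5.36, 5.31 and 5.52 in AML, against 6.35, 6.30 and 6.38 in control, a 1.92-fold lower level in AML without overlap (difference -0.94, SE 0.08, adjusted p = 0.00132). Cdk4 and Cdk6, the kinases of D-type cyclins, were higher, with differences of +0.62 and +0.90 (adjusted p 0.0384 and 0.0482), and Cdk4 read 8.83, 8.81 and 8.39 in AML, against 7.89, 8.14 and 8.16 in control. Cdkn2a, of the INK4A and ARF inhibitors, and E2f6, a repressive E2F, were higher, with differences of +0.44 and +0.45 (adjusted p 0.0122 and 0.016). The mean of E2f6, 5.39, was below 5.51, so that its level was not shown to be above background. Lin54, of the DREAM and MuvB complexes, and Fbxw7, the ubiquitin ligase subunit that marks cyclin E for degradation, were lower, with differences of -0.55 and -0.34 (adjusted p 0.012 and 0.0415). Cdkn1a, the gene of the inhibitor p21, differed by -0.21 (adjusted p = 0.151).

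**Figure D4:**
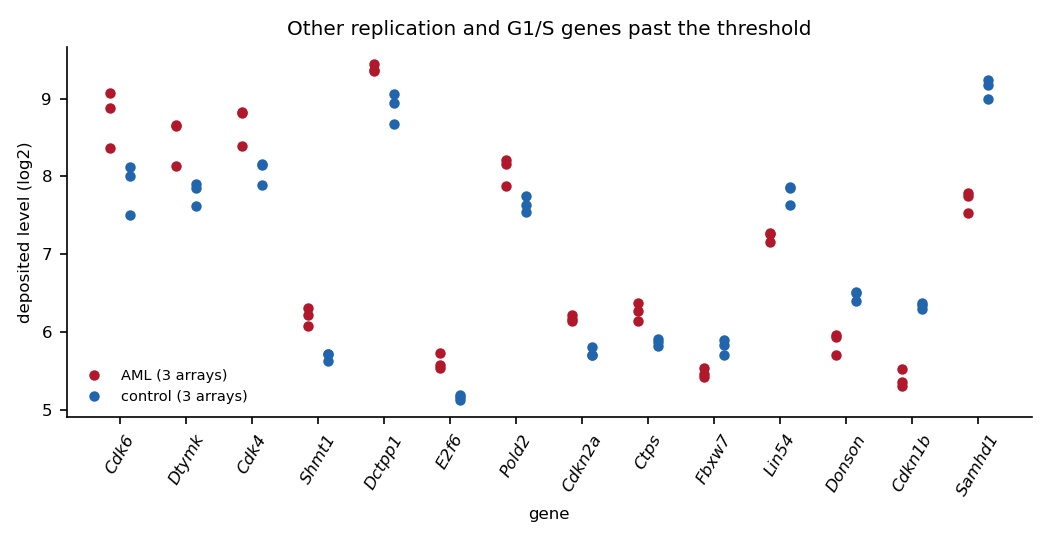
Levels of the 14 other replication and G1/S genes that were called, on the log2 scale, with a point for each array. AML arrays are drawn to the left of control arrays within each gene, 9 genes are higher and 5 lower in AML, and Samhd1 differs by -1.45.

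Of these 14 calls, those of Samhd1 and Cdkn1b were kept in all 15 alternatives. Each of the others was lost without at least 1 single array: 11 were lost without control array 2 (adjusted p 0.059 to 0.156), 10 without control array 3 (0.0521 to 0.141), 8 without AML array 2 (0.0501 to 0.123), 7 without AML array 1 (0.0695 to 0.114), 5 without control array 1 (0.0684 to 0.102) and 1, Fbxw7, without AML array 3 (0.0601). Median centring ended the calls of Cdk4, Cdk6, Ctps, Dctpp1, Dtymk and Pold2 (adjusted p 0.0844 to 0.155), and a mean-variance trend that of Pold2 (adjusted p = 0.0511).

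Mitosis genes, measured for comparison, were called in 3 of 25, or 12%, near the 10.7% of all genes, with a median difference of -0.004. Aurka, a spindle kinase gene, was higher by +0.36, and Kif23 and Nusap1, of the central spindle and of spindle microtubules, were lower, with differences of -0.76 and -0.52 (adjusted p 0.0233, 0.00785 and 0.0238). Leaving out AML array 3 kept the calls of Aurka and Nusap1, and leaving out each of the other arrays ended them (adjusted p between 0.0505 and 0.0914). Aurka was lost also under median centring (adjusted p = 0.111). The mitosis genes shared the array pattern, since 24 of 25 were under the AML mean on AML array 3 and 23 of 25 under the control mean on control array 1. A difference between the replication and mitosis genes was not tested.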

How the data were processed

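RNA of sorted megakaryocytes was hybridised to Affymetrix arrays, 1 array a sample. The deposited table holds log2 levels that the authors made with RMA, per the submitters' processing notes, so background correction, normalization and probe summary had been done, and a library depth does not apply. The precision is limited by the number of arrays. Of 72688 rows, 30604 carry 1 gene symbol in GEO's platform annotation, 2146 several and 39938 none. Rows with 1 symbol were named through RefSeq, the gene number serving for 22815, the symbol for 7479 and a synonym for 308, with 2 unmatched. For the 429 genes with more than 1 row the row of highest mean was used, which left 30063 genes.

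The groups were compared with lmFit and eBayes of limma 3.58.1 in R 4.3.3, as a two-sided test, and p-values were adjusted by Benjamini and Hochberg's method across the 30063 genes (threshold 0.05). The fit was tested on simulated data. Tables, promoter searches and plots used pandas 2.3.3, matplotlib 3.10.9 and numpy 2.4.6 under Python 3.11.15. Promoter windows of 300 bases came from RefSeq. The alternatives were a replicate block, a mean-variance trend, array weights, quantile normalization, median centring, cyclic loess, filters on dim genes, the mean of a gene's rows, a minimum fold of 1.5 and leaving out each array.

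The members and lists were chosen with earlier results of these data known. Values were to be given for every called gene of the 45, for the gene of smallest p and the brightest gene of each role and for genes called in 3 or more alternatives. Of each pathway list up to 4 called genes in each direction and the brightest gene were named, of the mitosis list up to 3 in each direction, and of each cell type list the 2 brightest genes. Dbf4, Mcm5, Cdc45, Pole2 and the other genes of the 45 outside this rule were named after their values were seen, as was Ncr1. Mcm7 was left out, since its row also names microRNA genes.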

Additional observations from a re-analysis of the deposited data

How the results depend on the processing

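Among the 45 replication genes, 11 were called higher and 2 lower with array weights (28.9%, against 26.1% of all genes). With quantile normalization 3 were higher (6.67%, against 11.6%), and with cyclic loess 3 (6.67%, against 12%). In the test of genes at or above the median level 2 of the 45 were higher (4.44%, against 22.4% of the genes tested). In that of genes above the receptor level, an alternative chosen after seeing the data, 2 were higher (4.44%, against 23.2%). With 1 array left out 0 to 7 were higher and 0 lower, where 3.22% to 12% of all genes were called. Over all genes, 1350 higher and 1880 lower became 206 and 861 with the replicate number as a block, 4839 and 3014 with array weights, 505 and 2712 with median centring, 439 and 1126 at 1.5-fold or more, and 185 to 1639 and 782 to 1967 with 1 array left out. Of the other pathway genes, 9 higher and 5 lower became 0 and 2 with the block, 17 and 12 with array weights, 3 and 9 with median centring, 3 and 3 at 1.5-fold, and 0 to 15 and 2 to 6 with 1 array left out. The block ended 12 of the 14 pathway calls (adjusted p 0.0503 to 0.137) and all 3 mitosis calls, Kif23 included (0.0518 to 0.106). The labels do not say what arrays of the same number share. Deviations of same-numbered arrays from their group means correlated at -0.36, 0.14 and -0.29. With 3 arrays a group this cannot show whether they are paired. The median difference of chromatin genes was 0.30 with quantile normalization, 0.10 with median centring and 0.13 to 0.30 with 1 array left out, and that of helicase genes 0.11 to 0.41. With median centring E2f1, Gmnn and Pold3 stood at -0.0715, -0.086 and -0.0707, and with 1 array left out they ran from -0.0189 to 0.112, from -0.107 to 0.258 and from -0.0592 to 0.217. The sign also turned in at least 1 alternative for Fen1, Gins3, Orc1, Rfc3, Rrm1, Rrm2 and Slbp, whose values lay between -0.157 and 0.293. The causes were not tested. Genes near the receptor level are limited by signal over background.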
